A study of Homo sapiens with 12 samples.

Results

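The distal part of the long arm of human chromosome 11 was described in MDA-MB-231 cells, a triple negative breast cancer line, as the stretch of chromosome 11 from 77000000 on hg19 to the last base. The stretch was chosen by its H3K9me2 coverage: called domains of dimethylated lysine 9 of histone H3 (H3K9me2) were dense there in all 4 libraries, and how much of it the mark covered is given as a description without a test. Every interval of every deposited list that fell in this stretch of 58 Mb was taken, which made 10224 of 416692 intervals, and none crossed the edge at 77000000. All cells were starved of serum overnight and then given 500 µM DETA/NO, a slow donor of nitric oxide, for 24 h, or left untreated after the same starvation. Per the series' design text each condition had 2 biological replicates, profiled for H3K9me2 and for acetylation of the same residue (H3K9ac), and the 4 inputs were not analysed here. P-values measure the spread between these libraries of a single cell line.

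Dimethylation of lysine 9 is written mainly by the methyltransferases G9a and GLP and read by proteins such as HP1, and it spreads over broad stretches of silent, often gene-poor chromatin near the nuclear lamina. Acetylation of the same lysine marks active promoters and enhancers, and a given histone tail cannot carry both modifications on that residue. From general knowledge, distal 11q carries genes active mostly in neurons. Among them are the adhesion genes CNTN5, NCAM1, NTM and OPCML and the glutamate receptor gene GRIA4. Distal 11q also carries the adhesion gene CADM1, the matrix metalloproteinase cluster with MMP1 and the methyltransferase gene KMT2A. RefSeq gene order on GRCh38.p14 runs FAT3, CNTN5, MMP1, GRIA4, NCAM1, CADM1, KMT2A, NTM and OPCML towards the telomere. No annotation or sequence of hg19 was used, so no gene was placed on any interval below.

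The H3K9me2 lists held 591 and 630 islands in distal 11q in treated cells and 631 and 600 in untreated cells, replicates 1 and 2 in that order here and throughout. The lists of H3K9ac peaks held 1255 and 1344 peaks in treated cells and 3396 and 1182 in untreated cells. The reproducible H3K9ac sets, 1 per condition, held 324 regions in treated and 271 in untreated cells. Untreated H3K9ac replicate 1 stood apart, with 120630 peaks over the genome against 59724 to 79538 in the other 3 lists. The lists give no read counts, so the depth behind an interval is unknown. Copy number was not measured, and its part in how many islands were called here was not tested.

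H3K9me2 islands covered 20.9 and 22.3 Mb of distal 11q in treated cells and 22.03 and 21.97 Mb in untreated cells. This was 36.1% and 38.4% of the stretch in treated cells and 38.0% and 37.9% in untreated cells, whereas the part of chromosome 11 up to 77000000 was covered to 11.8% to 13.9% over the 4 libraries. The conditions overlapped, with means of 21.6 Mb ± 0.953 in treated and 21.996 Mb ± 0.0414 in untreated cells (SD, n = 2 each). The difference of -0.40 Mb gave p = 1 in an exact, two-sided permutation test, in which 0.333 is the smallest p that 4 libraries allow. Without treated replicate 1 the difference was 0.274 Mb. Relative to each library's own total, distal 11q held 7.34% and 9.84% of all island bases in treated cells and 9.36% and 8.64% in untreated cells (exact permutation p = 1).

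Along the stretch the coverage rose and fell several times, and the 4 libraries followed the same outline. From 77 to 90 Mb the islands covered 28.4% and 28.7% in treated and 28.6% and 28.1% in untreated cells. The core lay from 90 to 106 Mb, where 68.1% and 64.5% of the bases were in islands in treated cells and 64.9% and 66.5% in untreated cells. A further 10 Mb to 116 Mb carried 28.6% and 32.8% in treated and 30.4% and 32.5% in untreated cells. Next came 5 Mb with almost no island, from 116 to 121 Mb, at 2.07% and 3.85% in treated and 3.66% and 2.98% in untreated cells. Coverage returned to 25.8% and 27.2% in treated and 27.1% and 26.9% in untreated cells from 121 to 131 Mb. In the last 4 Mb the libraries parted, with 19.98% and 50.5% in treated against 49.6% and 39.8% in untreated cells. Reproducible H3K9ac regions, 324 treated and 271 untreated in all, numbered 51 treated and 51 untreated from 77 to 90 Mb, 55 and 45 in the core, and 52 and 39 to 116 Mb. There were 67 treated and 69 untreated from 116 to 121 Mb, 96 and 59 from 121 to 131 Mb, and 3 and 8 in the last 4 Mb. Per Mb the core had 3.44 treated and 2.81 untreated regions, near the 3.92 and 3.92 from 77 to 90 Mb. From 116 to 121 Mb there were 13.4 and 13.8 per Mb. The last 4 Mb, not the core, had the fewest, at 0.75 and 2.00 per Mb. The bounds of all these parts were set after the profile was seen.

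**Figure D1:**
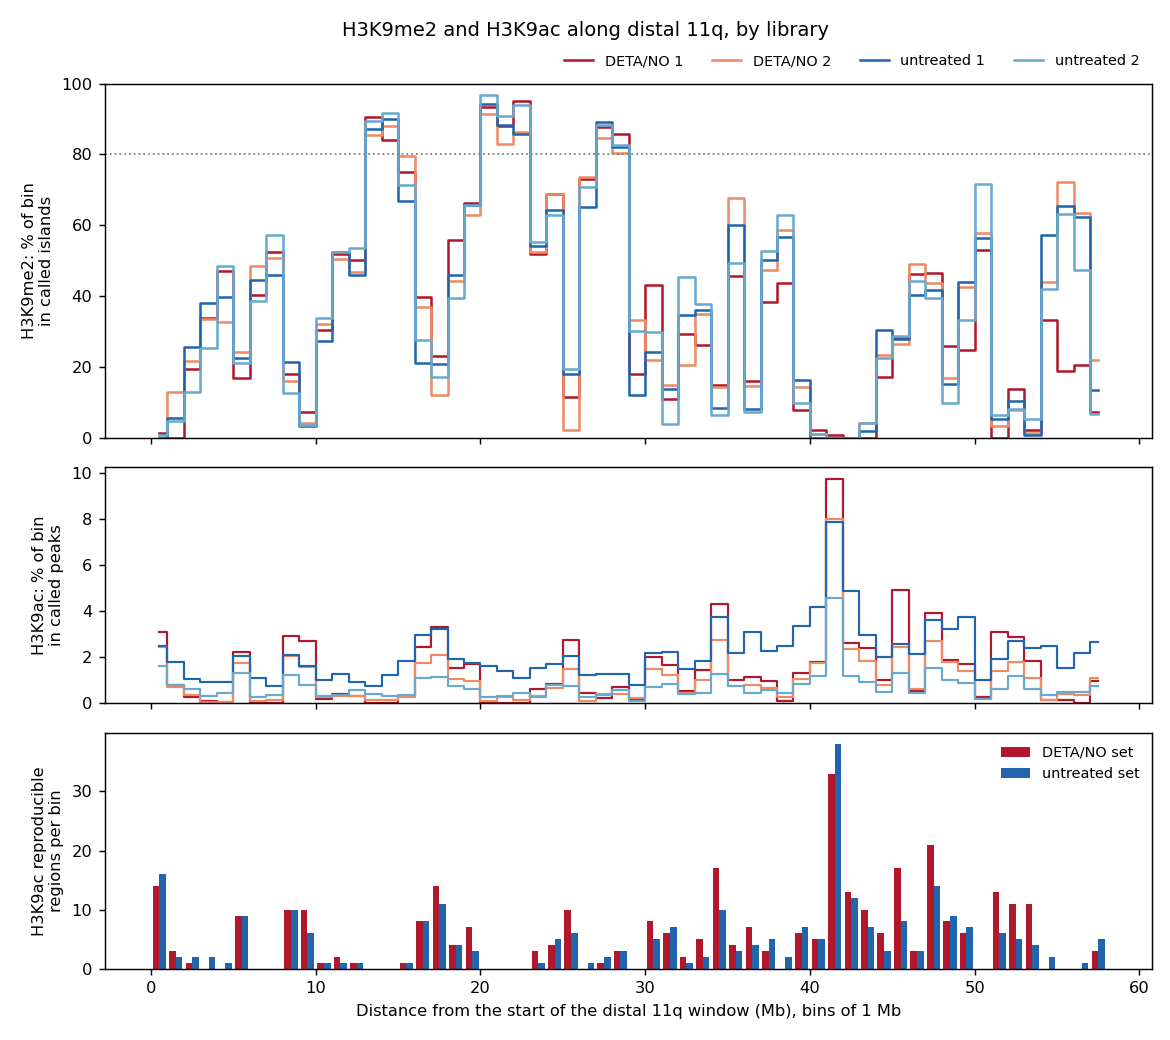
Share of each 1 Mb bin of distal 11q in H3K9me2 islands (top) and in H3K9ac peaks (middle) for the 2 treated (DETA/NO) and 2 untreated libraries of each mark, and the number of reproducible H3K9ac regions per bin in each condition (bottom), against distance from the start of the stretch in Mb. The dotted line marks 80% coverage, which 7 of 58 bins passed in all 4 H3K9me2 lists. Reproducible H3K9ac regions stand mostly where H3K9me2 is low.

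Islands took up 80% or more of 7 of the 58 full 1 Mb bins in all 4 H3K9me2 lists, beside 0.886% of all bins in the genome. Coverage is what the stretch was chosen for, so this count is no test. All 7 lay in the core. The densest began at 97000001, with 93.4% and 91.5% in treated and 94.4% and 96.7% in untreated cells. Its neighbour at 98000001 had 88.1% and 82.95% in treated and 88.3% and 91.0% in untreated cells, and that at 99000001 had 95.0% and 86.5% in treated and 85.8% and 93.9% in untreated cells. These 3 adjoining bins form the longest run that passed.

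A second group stood at 90000001, with 90.6% and 85.5% in treated and 87.2% and 89.6% in untreated cells, and at 91000001, with 84.1% and 87.95% in treated and 90% and 91.8% in untreated cells. The third began at 104000001, with 87.8% and 84.8% in treated and 89.2% and 88.2% in untreated cells. It ended with the bin at 105000001, which passed most narrowly, at 85.7% and 80.4% in treated and 82.1% and 82.7% in untreated cells. Just short of the limit was the bin at 92000001, with 75.1% and 79.5% in treated and 66.9% and 71.3% in untreated cells. At the edge of the stretch the last bin outside it, at 76000001, had 2.10% and 0% in treated and 0% in both untreated libraries, and the first bin inside had 1.15% and 0% in treated and 0% and 0.800% in untreated cells.

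At the other extreme, 5 bins were covered to under 5% in every list. The bin at 119000001 held no island in any library, and the bin at 118000001 held islands only in treated replicate 1, over 0.6% of its length. The other 46 full bins lay between these classes. Agreement among libraries was close over most of the stretch: the SD of a bin's coverage over the 4 libraries had a median of 4.35 percentage points, and 4 of 58 bins exceeded 10 points.

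Islands of H3K9me2 were wider in distal 11q than elsewhere in the same lists. The median island measured 22500 and 24500 bp in treated cells and 21000 and 22500 bp in untreated cells. Outside the stretch the medians were 13500 and 13500 bp in treated and 11500 and 11000 bp in untreated cells. Width goes with coverage, for which the stretch was chosen, so this is a description. Between conditions the median width differed by 1750 bp, with 23500 bp ± 1414 in treated and 21750 bp ± 1061 in untreated cells (SD, n = 2 each; exact permutation p = 0.667), and by 750 bp without treated replicate 2. The N50, the width at or above which islands hold 50% of the covered bases, went the other way. It was 54.5 and 51.0 kb in treated and 56.0 and 60.0 kb in untreated cells, which did not overlap, a difference of -5250 bp (exact permutation p = 0.333, the smallest possible).

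Islands of 100 kb or more numbered 34 and 33 in treated and 39 and 38 in untreated cells. They made up 23.1% and 21.2% of the covered bases in treated cells and 24.9% and 23.4% in untreated cells, so most of the coverage came from islands of 20 to 100 kb. The longest single island was a different one in each library. It spanned 99000501 to 99276000 in treated replicate 1 and 112864501 to 113123500 in treated replicate 2. In untreated replicate 1 it spanned 122134001 to 122347000, and in untreated replicate 2, at 336.5 kb the longest of all, 96933001 to 97269500.

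**Figure D2:**
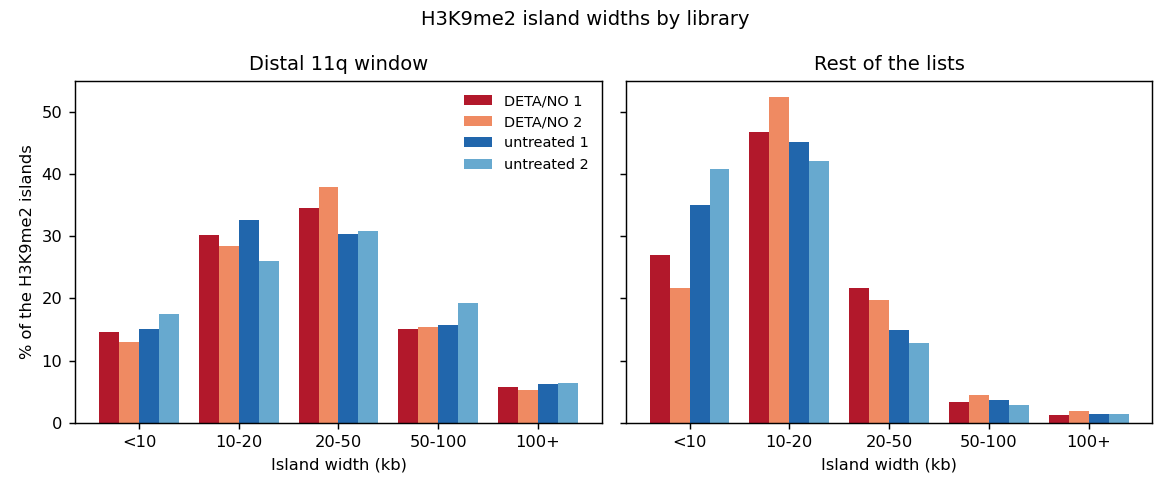
Share of H3K9me2 islands in each width class (kb) in distal 11q (left) and in the rest of each list (right), for 2 treated (DETA/NO) and 2 untreated libraries. In distal 11q islands of 50 to 100 kb made up 15.1% and 15.4% in treated and 15.7% and 19.3% in untreated cells, against 2.92% to 4.43% elsewhere.

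The gaps between neighbouring islands were mostly short. Their median was 8750 and 6000 bp in treated and 6500 and 7000 bp in untreated cells, and the shortest was 2000 bp in every list. Gaps of 20 kb or less made up 66.8% and 71.5% of all gaps in treated and 73.0% and 69.9% in untreated cells. A few gaps were very long: 5 and 4 in treated and 5 and 6 in untreated cells reached 1 Mb, the longest of them 3465500 bp in untreated replicate 1.

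The island names carry serial numbers that rise along the genome and skip values. The listed islands accounted for 45.7% and 53.1% of the numbers spanned in distal 11q in treated cells and for 51.0% and 48.0% in untreated cells, below the shares over whole lists of 54.6% and 59.9% in treated and 61.7% and 64.5% in untreated cells. Where no number was skipped the median gap was 3000 bp in all 4 lists. Where at least 1 was skipped it ran from 50500 to 54500 bp. A gap in a list is thus not shown to be free of the mark, and whether unlisted islands lay in it was not tested.

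Bases that lay in islands of all 4 lists summed to 13.04 Mb, which was 42.8% of the 30.4 Mb covered in any list. Over the rest of the genome this share was 15.3%. Each pair of libraries was also more alike here, a description since dense coverage chose the stretch, with a Jaccard index (shared bases over bases in either list) of 0.598 to 0.675 against 0.316 to 0.403 elsewhere. Alikeness did not follow treatment. The treated pair had the lowest index, 0.598, and the untreated pair, at 0.675, was matched by treated replicate 2 with untreated replicate 1, also at 0.675. Bases found in 1 library alone came to 1.82 and 1.71 Mb in treated and 1.19 and 1.3 Mb in untreated cells. Of the bases that the 3 other lists shared, 14.3% and 10.9% were missing in the treated libraries and 8.38% and 8.90% in the untreated ones.

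Segments common to all 4 lists, joined across gaps of up to 20 kb, made 161 common domains with a median of 28.5 kb, and 41 of them reached 100 kb and held 80.3% of their summed length. The core from 90 to 106 Mb held 63.4% of that length and 9 of the 10 longest. The longest domain ran from 103522001 to 104785500, 1263.5 kb, and was covered to 92.2% and 92.3% in treated and 93.9% and 91.0% in untreated cells. It was a chain of 20 and 25 islands in treated and 25 and 24 in untreated cells, not a single call. The next were 96439001 to 97247500 (808.5 kb), 105170501 to 105867000 (696.5 kb), 90238501 to 90816500 (578.0 kb) and 97281501 to 97825000 (543.5 kb).

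Edges of the 10 longest domains varied between libraries. Island bounds lay on a grid of 500 bp, so finer differences cannot be seen. Of their 20 edges 4 lay within 1 kb over all 4 lists, and the median spread was 12.25 kb. The start of the second longest domain spread over 1.00 kb among the 4 lists, and that of the fifth over 0.5 kb. The domain from 99922501 to 100322000 ended at the same grid position in all 4. Other edges were looser, up to 42.0 kb at the start of the fourth longest. At 1 of the 20 edges, the end of the sixth longest domain, both treated libraries reached past both untreated ones. The distance was 0.5 kb, a single step of the grid.

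**Figure D3:**
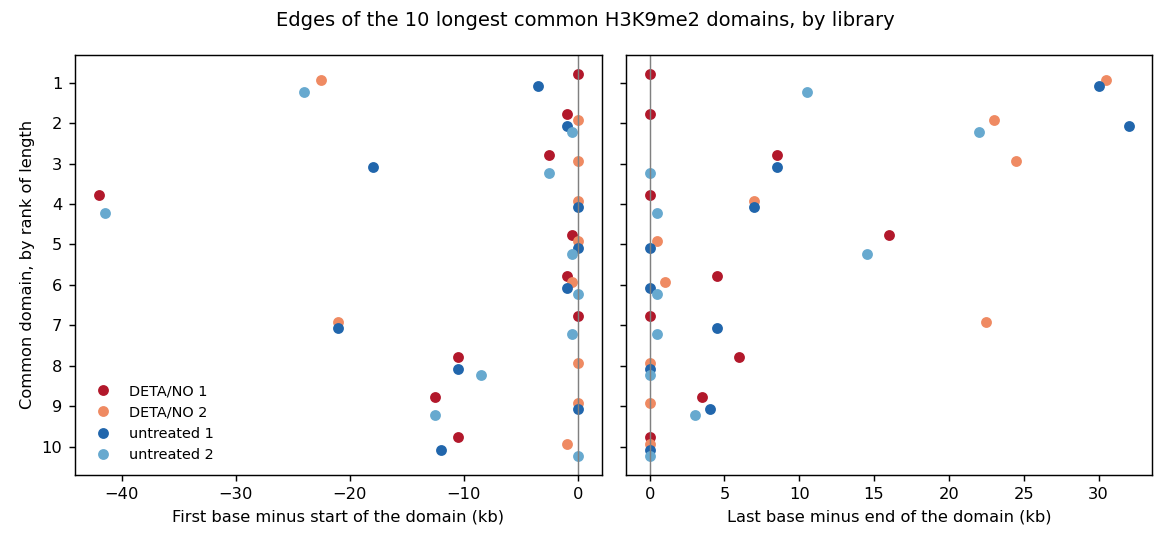
First base (left) and last base (right) of the H3K9me2 islands that meet each of the 10 longest common domains, as the distance in kb from the domain's own start or end, for 2 treated (DETA/NO) and 2 untreated libraries. At 4 of 20 edges the lists lie within 1 kb of each other, and the widest spread is 42.0 kb.

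Treatment was compared bin by bin in a fit over the whole genome. Of 1735 bins of 1 Mb that carried islands, limma on the arcsine square root of the covered share called 0% higher and 0% lower in treated cells at a Benjamini-Hochberg adjusted p under 0.05, so none of the 57 tested bins of distal 11q was called. Over the genome 48 bins had an unadjusted p under 0.05, and in distal 11q 0. In 10 of the 58 bins coverage was higher in each treated library than in either untreated one, and in 11 lower, where the genome gave 13.5% and 12.4%. Across 10583 bins of 100 kb limma also called 0% in either direction. At an unadjusted p under 0.05 there were 313, of which 23 were among the 426 tested in distal 11q. The conditions separated with treated cells higher in 44 of these 426 and lower in 54, where the genome gave 9.96% and 11.2%. Leaving out treated replicate 2, which leaves 1 treated library assumed to vary like the untreated ones, gave 31 bins of 100 kb called higher and 9 lower among 414 in distal 11q, which was 7.49% and 2.17%, where the genome gave 14.9% and 0.842% in the same limma fit.

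The bin with the largest positive difference began at 93000001, 1 Mb past the pair of dense bins at 90 and 91 Mb. It was covered to 39.8% and 36.95% in treated and 20.95% and 27.7% in untreated cells, a mean of 38.4% ± 1.98 against 24.3% ± 4.74 (SD, n = 2 each; limma, adjusted p = 0.948). Here the conditions did not overlap. Others with positive differences began at 125000001, with 26.0% and 16.9% in treated and 15.0% and 9.65% in untreated cells, at 92000001, and at 113000001, with 15.95% and 14.5% in treated and 8.05% and 7.15% in untreated cells. All 3 separated the conditions. Bins with positive differences were picked for the size of the difference, so separation in them is a description. In the fifth, at 95000001, treated cells had 55.8% and 44.3% and untreated cells 45.9% and 39.6%, which overlapped. Without treated replicate 1 the differences at 125000001 and 95000001 were 4.53 and 1.55 points, against 9.1 and 7.3 points with it.

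Of the 5 largest negative differences 3 lay at the telomeric end, and 2 of those rested on a single library. At 132000001 coverage was 18.8% and 72.4% in treated and 65.6% and 63.3% in untreated cells, and at 133000001 it was 20.5% and 63.6% in treated and 62.2% and 47.3% in untreated cells. Treated replicate 1 was low in both, while treated replicate 2 was higher than either untreated library. Without treated replicate 1 the mean differences of -18.9 and -12.7 points became 7.95 and 8.88 points. In the adjoining bin at 131000001 treated cells had 33.4% and 43.9% and untreated cells 57.3% and 42.1%. Away from the end, 109000001 had 29.2% and 20.6% in treated and 34.8% and 45.4% in untreated cells, and 102000001 had 11.5% and 2.20% in treated and 18.0% and 19.4% in untreated cells. These last 2 bins did not overlap between conditions, and each had an adjusted p of 0.948 in limma. They too were picked for the size of the difference, so the separation is a description. In the higher-scoring 50% of each list the difference at 102000001 was -1.7 points, against -11.9 over whole lists. Without treated replicate 2 the difference there was -7.25 points.

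**Figure D4:**
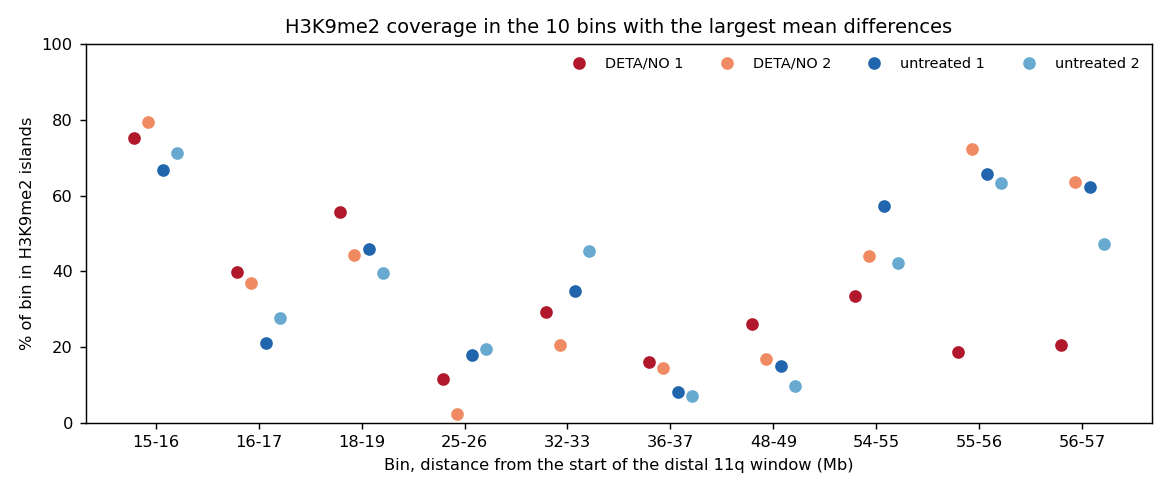
H3K9me2 coverage in percent of the 5 bins of 1 Mb with the largest positive and the 5 with the largest negative mean difference, ordered along the chromosome by distance from the start of distal 11q in Mb, with a point for each of 2 treated (DETA/NO) and 2 untreated libraries. In 2 of the last 3 bins treated replicate 1 lies at 18.8% and 20.5% while the other 3 libraries lie between 47.3% and 72.4%.

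Reproducible H3K9ac regions stood mostly where few H3K9me2 islands were listed. Peaks of the library lists were less set apart, above all in untreated cells. An island of any list was met by 6.37% and 26.0% of treated and 42.2% and 38.8% of untreated peaks. Such islands took up 52.5% of distal 11q. Reproducible H3K9ac regions began 15.0 times per bin in the treated set and 15.6 times in the untreated set in the 5 bins nearly free of listed H3K9me2 islands. These bins ranged from 5 to 33 treated and from 5 to 38 untreated regions, the most in the bin at 118000001. In the 46 bins between the classes there were 5.33 per bin in treated and 4.09 in untreated cells, and in the 7 dense bins 0.571 in treated and 0.714 in untreated cells. Of those 7 dense bins 5 held no reproducible region in either set, and the 4 treated and 5 untreated regions all lay in the 2 bins from 104000001 on. Across the 58 bins, mean H3K9me2 coverage and the number of H3K9ac regions had a Spearman correlation of -0.708 in the treated and -0.695 in the untreated set. With the share covered by H3K9ac peaks it was -0.707 and -0.707 in treated and -0.583 and -0.648 in untreated libraries. These values are a description, since neighbouring bins are not independent and all bins share the same libraries.

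H3K9me2 islands of any list took up 52.5% of distal 11q, and 8 of the 324 treated regions and 15 of the 271 untreated regions met one. With islands present in both libraries of the same condition, 0 treated and 5 untreated regions met them. Those 5 were narrow, 255 to 433 bp, began at 96927092, 101587373, 103542298, 112977221 and 114538150, and were also on bases of all 4 H3K9me2 lists. Their deposited value, taken as a −log10 irreproducible discovery rate, was 1.43 to 1.83, against 3.34 to 5.00 in the 5 widest untreated regions. Those widest regions were picked for their width, and regions of like width were not compared. The 5 on H3K9me2 bases were taken from the untreated set, so that they held no peak base in either treated library is a description. Of all untreated regions in distal 11q 9.23% met no treated peak. Without untreated replicate 2 of H3K9me2 the count was 11, and without treated replicate 1 or 2 the treated count was 1 or 4. The nearest island of any list was a median of 89.6 kb away from a treated region and 89.2 kb from an untreated one, and 13.9% of treated and 18.5% of untreated regions lay within 10 kb of one.

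The longest stretch that no H3K9me2 list touched ran from 118080501 to 120019000, 1938.5 kb, and held 44 treated and 49 untreated H3K9ac regions. Peaks covered 6.29% and 5.25% of it in treated and 6.32% and 2.93% in untreated cells. The next were 116559001 to 117730500, with 11 treated and 11 untreated regions, and 129662001 to 130797000, with 17 treated and 8 untreated regions. The stretch from 77442001 to 78234000 had 12 treated and 12 untreated, and that from 128159001 to 128865500 had 10 treated and 6 untreated regions. Together these 5 stretches made up 9.90% of distal 11q and held 29.01% of its treated and 31.7% of its untreated regions. In the H3K9me2 names 31 and 37 serial numbers were skipped in treated and 35 and 25 in untreated lists between the listed islands on either side of the first stretch.

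Between common domains lay 162 stretches, of which 31 held H3K9ac regions of both sets, 9 of the untreated set alone and 0 of the treated set alone, and 122 none. The 40 with a region had a median length of 577.75 kb and the others of 41.0 kb. The most regions lay from 116198001 to 121785000, with 73 treated and 71 untreated. The stretch from 124422001 to 125588000 was the densest of the 5 with the most treated regions, at 22.3 treated and 16.3 untreated regions per Mb, 26 and 19 regions. From 111025501 to 112282000 there were 21 treated and 12 untreated regions, from 85279501 to 87220000 there were 20 and 16, and from 77000001 to 79431000 there were 18 and 19. Just under 50% of all treated regions here, 48.8%, and 50.6% of the untreated ones began in these 5 stretches.

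Of the 5 widest H3K9ac regions 2 in the treated and 3 in the untreated set lay in the longest island-free stretch. Among treated regions they ran from 118779333 to 118785986 (6654 bp), 122928403 to 122935040 (6638 bp), 118790886 to 118797397 (6512 bp), 122045031 to 122051368 (6338 bp) and 128388593 to 128394483 (5891 bp). Among untreated regions they ran from 118781378 to 118786017 (4640 bp), 118792931 to 118797486 (4556 bp), 118659368 to 118663147 (3780 bp), 122931053 to 122934585 (3533 bp) and 86510450 to 86513680 (3231 bp). Each of these untreated regions overlapped 1 region of the treated set. In the region from 122045031 peaks covered 6338 and 4476 bp in treated and 2900 and 2725 bp in untreated libraries, so the conditions did not overlap. It was picked for its width in the treated set, so this is a description.

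Treated cells had more H3K9ac regions here by a smaller factor than elsewhere: the sets stood at 324 against 271, a ratio of 1.20, and at 1.47 over the rest of the genome. Each condition has 1 set, so this difference was not tested. Of the treated regions 55, or 17.0%, met no peak of either untreated library, beside 15.1% of the treated set genome-wide. Of the untreated regions 25, or 9.23%, met no peak of either treated library, beside 4.40% genome-wide. Without untreated replicate 1 the 55 became 93, and the genome share under that rule was not worked out.

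Over the library lists H3K9ac peaks covered 0.824 and 0.612 Mb of distal 11q in treated and 1.24 and 0.425 Mb in untreated cells (exact permutation p = 1), and the 2 untreated libraries enclosed the treated ones. The difference of -0.117 Mb became 0.292 Mb without untreated replicate 1. As a share of each library's own peak bases, distal 11q held 1.58% and 1.62% in treated and 2.57% and 1.87% in untreated cells. Here the conditions did not overlap, with 1.60% ± 0.0255 in treated and 2.22% ± 0.498 in untreated cells (SD, n = 2 each; exact permutation p = 0.333, the smallest possible). Over 2879 bins of 1 Mb limma called 0% higher and 0% lower for H3K9ac, with 363 bins at an unadjusted p under 0.05, 12 of them among the 58 of distal 11q. On the arcsine square root scale the median difference in limma was -0.0228 in distal 11q and 0.00723 over the genome. Without untreated replicate 2 these medians were -0.0529 and -0.0126. That fit leaves untreated replicate 1, with its 120630 peaks, as the only untreated library, assumed to vary like the treated ones. Without untreated replicate 1 the medians were 0.0153 and 0.0264, again with 1 untreated library left.

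In 18 of the 58 bins H3K9ac coverage was lower in each treated library than in either untreated one, and in 1 higher, where the genome gave 24.3% and 20%. The 18 bins included 5 of the 7 dense ones and none of the 5 nearly free of listed H3K9me2 islands, and their H3K9me2 coverage had a median of 50.3% against 23.3% in the other 40. The 1 bin with more H3K9ac in both treated libraries began at 118000001, at 9.75% and 7.99% in treated and 7.86% and 4.56% in untreated cells. In the dense bin at 99000001 peaks covered 0% and 0.144% in treated and 1.09% and 0.461% in untreated cells (limma, adjusted p = 0.221).

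H3K9ac peaks were scattered over the H3K9me2 domains, and more so in untreated libraries. On bases common to all 4 H3K9me2 lists lay 16 and 142 peaks in treated and 603 and 191 in untreated cells. This was 1.27% and 10.6% of the peaks in distal 11q in treated and 17.8% and 16.2% in untreated cells. All 4 shares were below the 22.5% of distal 11q that these bases took up. Both treated libraries were lower, at a mean of 5.92% ± 6.57 against 16.96% ± 1.13 (SD, n = 2 each; exact permutation p = 0.333, the smallest possible), and the treated libraries differed from each other widely. This measure was chosen after the lists had been examined. Lists of equal length left the difference at -10.5 points, against -11.04 points over whole lists. These peaks had median widths of 116 and 121.5 bp in treated and 238 and 188 bp in untreated cells. Peaks outside any H3K9me2 island had medians of 251 and 193 bp in treated and 260 and 261 bp in untreated cells. The narrowest H3K9ac peak of distal 11q measured 99 and 114 bp in treated and 238 and 175 bp in untreated lists, and the part of this in the result was not tested. By the authors' score their median stood at percentile 20.3 and 26.3 of the list in treated and 38.2 and 33.1 in untreated cells. The order of the libraries was the same over the rest of the genome, where 0.142% and 0.899% of peaks in treated and 2.33% and 1.75% in untreated cells lay on such bases.

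**Figure D5:**
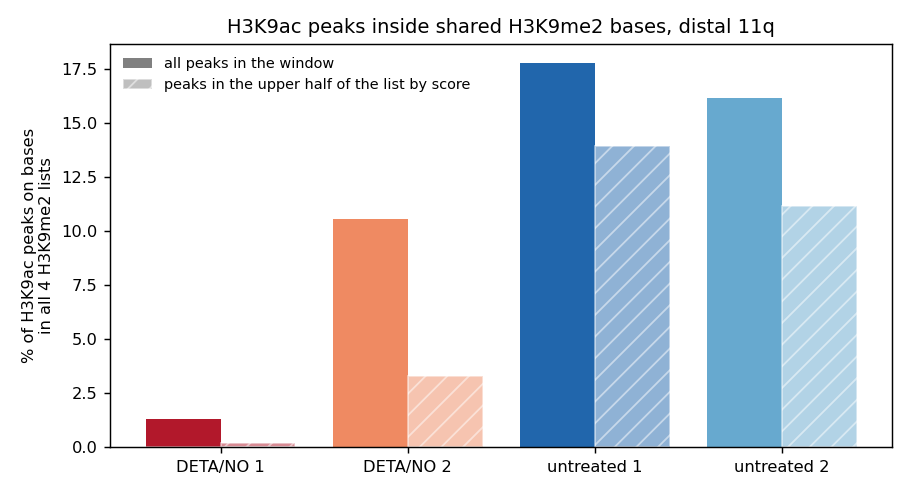
Share in percent of the H3K9ac peaks of distal 11q that lie on bases in all 4 H3K9me2 lists, for all peaks (solid) and for peaks in the higher-scoring 50% of each list (hatched), in 2 treated (DETA/NO) and 2 untreated libraries. Over all peaks the treated libraries stand at 1.27% and 10.6% and the untreated ones at 17.8% and 16.2%.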

How the data were processed

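The data were lists of called intervals from chromatin immunoprecipitation of H3K9ac and H3K9me2. Tools named per the submitters' processing notes are SICER, MACS2, Picard, BWA 0.7.5 and Trimmomatic 0.32, on hg19. The sources used here do not say which tool made which list, with what settings or inputs. Each H3K9ac peak and H3K9me2 island has a score deposited by the authors, used only to rank intervals within a list. The reproducible H3K9ac sets hold a value per region deposited by the authors, taken to be a −log10 irreproducible discovery rate because its minimum is that of a rate of 0.05. Other deposited columns, starts and ends, were used as positions, printed counted from 1; the end of an H3K9me2 island was taken as its last base.

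Coverage, overlap (at least 1 bp) and exact permutation tests used Python 3.11.15, numpy 2.4.6 and pandas 2.3.3, and bins were fitted with limma 3.58.1 (R 4.3.3, trend on the mean) over 23 chromosomes, leaving out bins at 0 in all 4 libraries. The code was tested on simulated data. The stretch, the measures and the rules for the loci named were chosen with earlier results of these data known. The loci named are the bins at least 80% covered in all 4 lists, the 5 bins with the largest differences in each direction, the 5 longest domains and island-free stretches, the 5 stretches between domains with the most treated H3K9ac regions, the 5 widest regions of each set, regions on bases of all 4 H3K9me2 lists, and the longest island of each list; other loci, among them the bins at 99000001 for H3K9ac, 118000001 and 119000001, the tenth domain and the edge bin, were chosen after their values were seen.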

Additional observations from a re-analysis of the deposited data

How the results depend on the processing

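Both conditions number their replicates 1 and 2, and nothing in the labels links equal numbers, so the main tests have no block. Same-numbered H3K9me2 libraries deviated in opposite directions over 1735 bins of 1 Mb (correlation of deviations -0.394), and H3K9ac libraries in the same direction (0.198 over 2879 bins). In limma a block on replicate number called 2 of 426 bins of 100 kb for H3K9me2 in distal 11q, both lower (0.469%; genome 0.132% lower), and 10 of 58 of 1 Mb for H3K9ac, 3 higher and 7 lower (5.17% and 12.1%; genome 14.97% and 3.51%), and no H3K9me2 bin of 1 Mb; the block left the differences of single values as they were. A crossed block for H3K9me2, added after seeing the data, called 0 at both bin sizes. For H3K9ac the crossed block called 0 of 58 bins of 1 Mb in distal 11q (genome 0% higher and 0.417% lower). The H3K9ac calls with a block thus depended on which libraries were paired. Without the filter on bins 4 of 580 bins of 100 kb were called, 1 higher and 3 lower (0.172% and 0.517%; genome 0.0362% and 0.056%). With H3K9ac lists of equal length, added after seeing the data, 16 bins of 1 Mb were called, 4 higher and 12 lower (6.90% and 20.7%; genome 7.05% and 13.96%). Leaving out 1 library gave 0 to 40 bins of 100 kb (40 where the genome had 1524 higher and 86 lower of 10212), 0 to 25 H3K9ac bins (25 where the genome had 2 higher and 730 lower of 2879), and 0 H3K9me2 bins of 1 Mb throughout.

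Without 1 library at a time the treated minus untreated difference ran from -1.07 to 0.274 Mb for H3K9me2 length (reversed without treated replicate 1), from -1.66 to 0.842 points for the H3K9me2 share (likewise) and from -0.526 to 0.292 Mb for H3K9ac length (reversed without untreated replicate 1). H3K9ac length also reversed to 0.149 Mb in the higher-scoring 50% of each list and to 0.158 Mb in lists of equal length. In the higher-scoring 50% the bins at 92000001 and 131000001 reversed to -1.38 and 4.15 points; without treated replicate 1 those at 132000001 and 133000001 reversed to 7.95 and 8.88, their ranges over all 4 omissions being -45.7 to 7.95 and -34.2 to 8.88. Lower H3K9ac shares in treated cells, both of library bases and of peaks on common H3K9me2 bases, kept their direction under all alternatives run, at -0.973 to -0.269 and -15.7 to -6.39 points when 1 library was left out.

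Bins covered in all lists numbered 14 at a limit of 50%, 1 at 90% and 1 with the higher-scoring islands, and 7 without any 1 library. Common domains numbered 686, 301 and 60 when joined over 0, 5 and 100 kb. Treated regions absent from untreated cells numbered 117 when judged from the other set and 62 to 93 without 1 untreated library. The genome shares under these rules were not worked out, so these counts show nothing particular to distal 11q. Regions on same-condition islands numbered 1 to 4 in treated and 5 to 11 in untreated cells with 1 H3K9me2 library. The cause of these shifts was not tested. The lists hold no reads, so what depth limits cannot be stated.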
